A study of Mus musculus with 6 samples.

Results

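The nuclear-encoded subunits of oxidative phosphorylation were compared across mouse aortas with calcified plaques, with medial calcification and without calcification. They were chosen by symbol: names of the Nduf subunit series, Sdha to Sdhd, the Uqcr series, the Cox4 to Cox8 series and the Atp5 series. Of the 27815 genes in the files, 92 names matched, 5 names ending in the pseudogene suffix -ps were set aside, and 87 genes remained. Of these, 83 are annotated as protein-coding in GENCODE M21, while Ndufa11b, Ndufb4c, Ndufs6b and Cox6c2 are annotated as processed pseudogenes and were kept because the choice went by name. Among the names set aside, Ndufb1-ps was read at 21.9 to 29.3 FPKM. Complex I accounted for 40 of the 87, complex II for 4, complex III for 8, complex IV for 18 and complex V for 17. The names leave out the subunit genes Cyc1 (complex III) and Ndufab1 (complex I), which were counted with the electron carriers and partners. Genes with at least 1 FPKM (fragments per kilobase of exon at equal library depth, a level per length) in at least 2 libraries were tested, which left 84 members. Cox7b2 and Ndufa11b were below 1 FPKM in every library, with at most 3 and 1 reads. Ndufb2 stood at 0.657 to 1.20 FPKM, over 5628 bases of annotated exon, and passed 1 FPKM in 1 library only.

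Polyadenylated RNA of C57BL/6 aortas was sequenced in 6 libraries, 2 for each of 3 groups. The ApoE group carried the ApoE-/- genotype and was 16 months old after a chow diet, a model of atherosclerotic calcification. The CKD group had kidney tissue removed in 2 operations that began at 8 weeks of age and were 1 week apart, and was then given a 2% phosphate diet and 0.45% NaCl in the water for 4 weeks, a model of medial calcification. The genotype label of the CKD libraries names no allele. Their age label of 16 months does not match the protocol, and their true age is unknown. The Ctrl group was wild type, 2 months old and without surgery. Age and genotype therefore cannot be told apart in ApoE versus Ctrl. In CKD versus Ctrl surgery, diet, NaCl water and the unknown age cannot be told apart either. ApoE versus CKD mixes the ApoE-/- genotype with surgery, diet, NaCl water and possibly age. Apoe itself stood at 13.2 and 11.4 FPKM in the ApoE libraries, against 756 and 627 FPKM in the Ctrl libraries. The libraries held 14.4 to 16.6 M reads, recovered from the FPKM steps, and the labels do not say whether each came from a single mouse or a pool.

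Oxidative phosphorylation takes place in the inner mitochondrial membrane. Complexes I and II pass electrons from NADH and succinate to ubiquinone, complex III passes them to cytochrome c and complex IV to oxygen, and complex V uses the resulting proton gradient to make ATP. Most subunits are encoded in the nucleus, while the mitochondrial genome encodes a small core. Several complex IV subunits exist as isoforms: Cox7a1, Cox8b and Cox6a2 are known as the forms of heart, skeletal muscle and brown fat, and Cox7a2, Cox8a and Cox6a1 as their widely expressed partners. Cox4i2 is known from lung and from hypoxia, Cox6b2 and Cox7b2 from testis, and Ndufa4l2 as a target of hypoxia-inducible factors.

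The promoters of the isoform pairs whose balance differed most in percentage points between libraries are shown because they differ visibly in CpG content. Each is the RefSeq promoter of GRCm38.p6, from 250 bases before to 50 bases after the gene start, on the strand of the gene and with CG dinucleotides in capitals. Cox7a1 lies at chr7:30183921-30184220 on the plus strand, Cox7a2 at chr9:79759804-79760103 on the minus strand, Cox8b at chr7:140900397-140900696 on the minus strand and Cox8a at chr19:7217567-7217866 on the minus strand.
Cox7a1: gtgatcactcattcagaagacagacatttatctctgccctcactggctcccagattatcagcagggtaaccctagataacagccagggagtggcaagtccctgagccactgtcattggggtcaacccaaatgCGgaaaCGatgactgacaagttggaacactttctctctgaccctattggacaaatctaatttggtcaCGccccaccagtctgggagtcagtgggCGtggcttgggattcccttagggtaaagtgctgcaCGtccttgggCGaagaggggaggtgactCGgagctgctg
Cox7a2: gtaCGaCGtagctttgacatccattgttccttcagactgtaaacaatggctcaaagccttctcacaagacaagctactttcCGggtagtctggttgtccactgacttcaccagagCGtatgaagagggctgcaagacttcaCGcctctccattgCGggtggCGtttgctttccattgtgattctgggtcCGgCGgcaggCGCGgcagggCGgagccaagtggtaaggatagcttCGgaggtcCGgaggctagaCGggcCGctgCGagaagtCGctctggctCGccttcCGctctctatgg
Cox8b: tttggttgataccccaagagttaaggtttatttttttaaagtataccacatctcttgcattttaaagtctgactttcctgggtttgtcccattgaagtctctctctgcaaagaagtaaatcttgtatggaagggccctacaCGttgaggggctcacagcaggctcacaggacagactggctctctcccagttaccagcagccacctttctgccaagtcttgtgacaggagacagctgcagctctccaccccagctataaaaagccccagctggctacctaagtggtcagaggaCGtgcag
Cox8a: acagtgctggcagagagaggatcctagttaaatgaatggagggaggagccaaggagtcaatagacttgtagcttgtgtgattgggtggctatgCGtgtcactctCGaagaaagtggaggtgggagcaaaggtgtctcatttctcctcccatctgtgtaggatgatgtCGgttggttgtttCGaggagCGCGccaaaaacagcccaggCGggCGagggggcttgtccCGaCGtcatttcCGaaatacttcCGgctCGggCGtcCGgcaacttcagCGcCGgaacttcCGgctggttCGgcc
The muscle-form promoters held 7 (Cox7a1) and 2 (Cox8b) CG dinucleotides, and those of the partners held 20 (Cox7a2) and 19 (Cox8a). A promoter was found for 66 of the 87 members, and their median was 19 CG dinucleotides, against 7 over all 27025 promoters of the same length. Most members thus had CpG-rich promoters. A low number was not limited to Cox7a1 and Cox8b: the promoter of the widely expressed Cox7b held 5 and that of Ndufc2 held 8.

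Motifs were searched on both strands of the same promoters. The letters GCGCNNGCGC, the core of the nuclear respiratory factor 1 motif, occurred in 17 of 66 member promoters (25.8%) and in 6.43% of all promoters. The letters CCGGAAG, read by ETS factors such as GABP (nuclear respiratory factor 2), occurred in 15 (22.7%) and in 9.12% of all, and the Cox8a promoter printed above holds them on its minus strand at bases 246 and 283. Either motif occurred in 42.4% of member promoters and in 14.4% of all. The letters AAGGTCA, the half-site of oestrogen-related receptors, occurred in 12.1% of member promoters, among them those of Sdhd, Ndufb4 and Atp5k, and in 4.66% of all. The MEF2 motif occurred in 0 member promoters and in 3.26% of all. None of these motifs was found in the Cox7a1, Cox7a2 or Cox8b windows. The first 2 motifs contain CG dinucleotides, which these promoters hold in larger number, and the part of base composition in these shares was not tested.

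Together the subunit genes were higher in the ApoE and CKD libraries than in Ctrl, and the CKD libraries differed widely from each other. Their summed level was 9096 and 9047 FPKM in the ApoE libraries, 10708 and 6003 FPKM in the CKD libraries, and 4659 and 5354 FPKM in the Ctrl libraries. Relative to the mean of the Ctrl libraries the sum was 1.82 and 1.81 times as high in ApoE and 2.14 and 1.20 times as high in CKD. Both ApoE libraries were thus alike, whereas CKD 1 was the highest library of all and CKD 2 stood closer to Ctrl. CKD 1 was the highest library for 63 of the 84 members tested, and Ctrl 1 was the lowest for 69.

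**Figure D1:**
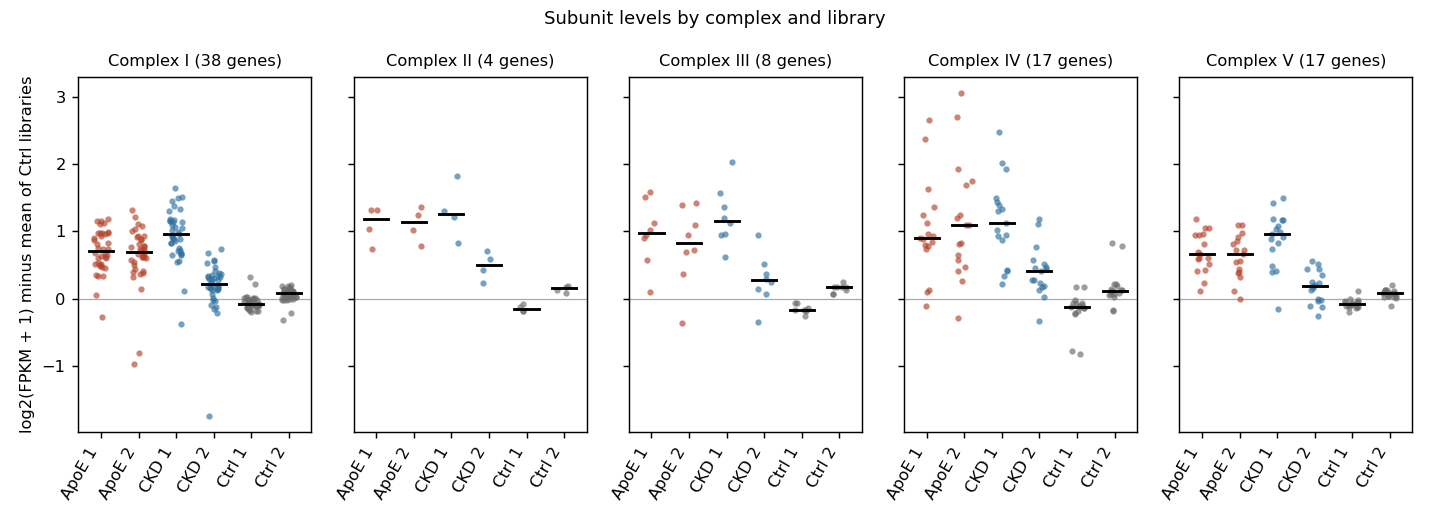
Level of each tested subunit gene in each library, as log2(FPKM + 1) minus the mean of the Ctrl libraries, by complex; points are genes and black bars are medians. The medians of ApoE 1, ApoE 2 and CKD 1 lie above those of the Ctrl libraries in all 5 complexes, and CKD 2 lies between.

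ApoE versus Ctrl asks how the old atherosclerotic aorta differs from the young wild-type one. Of the 84 members tested, 35 rose in ApoE and 0 fell (limma on log2(FPKM + 1), Benjamini-Hochberg adjusted p below 0.05 over 14074 genes). Over all genes tested 19.8% were called higher and 24.3% lower. The annotated pseudogenes Ndufb4c and Cox6c2 are among the 35, and 33 of the 81 tested protein-coding members rose. An unadjusted p below 0.05 was found for 55 members and for 53.6% of all genes. The members' median log2 fold change was 0.80, and that of all genes was -0.07. In 78 members both ApoE libraries lay above both Ctrl libraries, a pattern that 36.4% of all genes showed. In 0 members both lay below, which 43% of all genes showed. The 6 others, with overlapping libraries, were Ndufa4l2, Ndufs3, Uqcrc1, Cox4i2, Cox6b2 and Atp5g1. The number called rested on single libraries: 0 members were called higher without Ctrl 1, 5 without Ctrl 2, 2 without ApoE 1 and 1 without ApoE 2, where 9.89%, 11.4%, 10.3% and 10.7% of all genes were called higher. By contrast 73 were called higher without CKD 1 or CKD 2, and 74 in a fit of only the 4 libraries compared, where 23.7%, 23.7% and 23.3% of all genes were.

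Complex II, succinate dehydrogenase, which also belongs to the citric acid cycle, was the complex in which every subunit gene was called higher, beside 19.8% of all genes. Sdha, the flavoprotein subunit, stood at 126 and 125 FPKM in ApoE and 53.8 and 69.5 FPKM in Ctrl, and rose by 1.03 on the log2 scale (SE 0.29, limma adjusted p = 0.0334). Sdhb, the iron-sulphur subunit, stood at 105 and 108 FPKM in ApoE and 36.6 and 47.1 FPKM in Ctrl (log2 fold change 1.34, SE 0.37, limma adjusted p = 0.0306). These catalytic subunits were higher in ApoE, with no overlap between libraries. Of the membrane anchors, Sdhc stood at 48.5 and 50.02 FPKM in ApoE and 26.8 and 30.3 FPKM in Ctrl (0.77, SE 0.22, limma adjusted p = 0.0358). Sdhd, the other anchor, stood at 150 and 142 FPKM in ApoE and 54.3 and 64.7 FPKM in Ctrl (1.29, SE 0.26, limma adjusted p = 0.0119). Sdhd had the smallest adjusted p of all members. Without Ctrl 1, ApoE 1 or ApoE 2, 0 of these 4 genes were called, and 1 was called without Ctrl 2.

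In complex IV, cytochrome c oxidase, 10 of 17 tested members rose, beside 19.8% of all genes, with a median log2 fold change of 1.01. Cox5a, a subunit on the matrix side, stood at 35.7 and 44.3 FPKM in ApoE and 9.30 and 12.8 FPKM in Ctrl (log2 fold change 1.77, SE 0.39, limma adjusted p = 0.0144), and 12.8% of its exon length overlaps an antisense gene. Cox6b1, which faces the intermembrane space, stood at 313 and 279 FPKM in ApoE and 107 and 138 FPKM in Ctrl (1.27, SE 0.35, limma adjusted p = 0.0319). Both genes were higher in each ApoE library than in either Ctrl library. The most abundant member of the complex, Cox6a1, stood at 660 and 694 FPKM in ApoE and 378 and 410 FPKM in Ctrl, and did not pass the test (0.78, SE 0.29, limma adjusted p = 0.0747). Cox4i1, Cox5b, Cox7b and Cox8a were also called higher. So was Cox6c2, which is annotated as a processed pseudogene. It had 1.09 and 2.62 FPKM in ApoE and 0.260 and 0 FPKM in Ctrl, where that is at most 1 read. Cox6c2 reached 1 FPKM only in ApoE 1, ApoE 2 and CKD 1, and its call was lost with no filter on low values.

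In complex III, the cytochrome bc1 complex, 3 of 8 members rose, beside 19.8% of all genes, with a median of 0.90. Uqcrq, a small subunit beside cytochrome b, stood at 153 and 137 FPKM in ApoE and 44.7 and 56.9 FPKM in Ctrl (log2 fold change 1.51, SE 0.39, limma adjusted p = 0.0260). Uqcrfs1, the Rieske iron-sulphur protein, stood at 165 and 153 FPKM in ApoE and 48.1 and 68.7 FPKM in Ctrl (1.45, SE 0.38, limma adjusted p = 0.0261). Uqcr10, the most abundant member, stood at 277 and 262 FPKM in ApoE and 130 and 143 FPKM in Ctrl (0.98, SE 0.30, limma adjusted p = 0.0425). The electron-carrying Rieske protein and these small subunits thus rose. The core protein Uqcrc1 overlapped between groups, at 23.2 and 16.6 FPKM in ApoE and 19.5 and 23.7 FPKM in Ctrl.

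Complex I, the NADH dehydrogenase, had 13 of 38 tested members called higher, beside 19.8% of all genes. The pseudogene Ndufb4c was among the 13, and the median of the complex was 0.74. The members called included Ndufs1 (a core subunit of the peripheral arm), Ndufv2 (of the NADH-oxidising module), Ndufa10, Ndufb8 and Ndufc1. Their log2 fold changes ran from 0.64 (Ndufb7) to 1.19 (Ndufb8). The most abundant member, Ndufb9, stood at 289 and 278 FPKM in ApoE and 152 and 174 FPKM in Ctrl and was not called (0.79, SE 0.34, limma adjusted p = 0.105). Ndufs3 varied widely within groups: 7.84 and 3.37 FPKM in ApoE, 12.4 and 1.56 FPKM in CKD, and 8.91 and 6.37 FPKM in Ctrl.

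In complex V, the ATP synthase, 5 of 17 members rose, beside 19.8% of all genes, and the median was 0.63. With no filter on low values 0 members of complex III or V were called, where 8.55% of all genes were called higher. Atp5b, the catalytic beta subunit and the most abundant member, stood at 303 and 336 FPKM in ApoE and 144 and 171 FPKM in Ctrl (log2 fold change 1.02, SE 0.30, limma adjusted p = 0.0395). Atp5f1, Atp5g2, Atp5mpl and Atp5o were the others called, and 47.9% of the exon length of Atp5o overlaps other annotated genes. Atp5g1, Atp5g2 and Atp5g3 encode the same c subunit of the rotor, and their shares differed by gene. Atp5g1 made up 7.63% and 7.60% of their summed FPKM in ApoE, 5.39% and 8.83% in CKD, and 11.3% and 9.10% in Ctrl. Atp5g1 itself stood at 10.2 and 9.33 FPKM in ApoE and 10.2 and 8.55 FPKM in Ctrl, so its lower share in ApoE went with higher levels of Atp5g2 and Atp5g3.

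**Figure D2:**
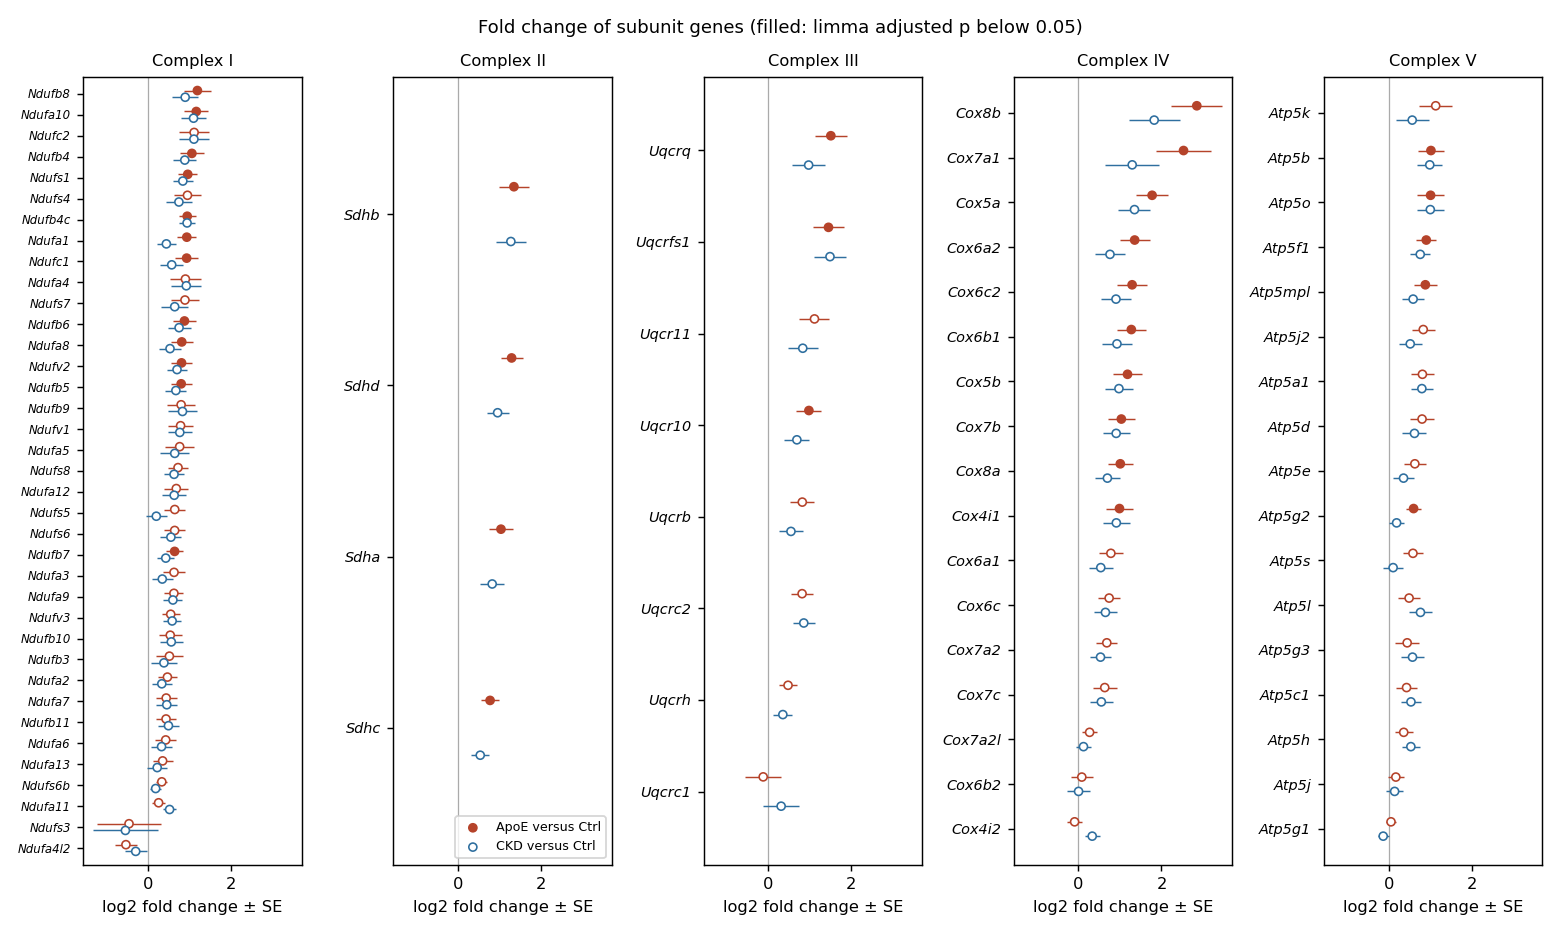
Log2 fold change with its standard error for the subunit genes reported here in ApoE versus Ctrl (red) and CKD versus Ctrl (blue), by complex; filled points have a limma adjusted p below 0.05. The filled points all belong to ApoE versus Ctrl and lie to the right of 0, with Cox8b and Cox7a1 farthest out; both comparisons share the Ctrl libraries.

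The muscle and brown fat isoforms Cox8b and Cox7a1 had the largest fold changes of all members in ApoE versus Ctrl on the log2(FPKM + 1) scale. That scale understates low genes: with a pseudocount of 0.1 the value was 2.79 for the low Cox6a2, above 2.64 for Cox7a1, and the ratio of mean FPKM was larger for Cox6a2 and Cox6c2 than for Cox8b or Cox7a1. Cox8b stood at 258 and 340 FPKM in ApoE, 227 and 92.3 FPKM in CKD, and 23.0 and 69.5 FPKM in Ctrl. In ApoE versus Ctrl its log2 fold change was 2.85 (SE 0.62, limma adjusted p = 0.0141), and the call was lost without Ctrl 1, ApoE 1 or ApoE 2 (limma adjusted p = 0.0559, 0.0565 and 0.0860). Its partner Cox8a stood at 466 and 524 FPKM in ApoE, 535 and 297 FPKM in CKD, and 224 and 269 FPKM in Ctrl (1.01, SE 0.31, limma adjusted p = 0.0422). Both members of the pair were thus higher in ApoE, and Cox8b by more. Cox8b made up 35.6% and 39.4% of the pair in ApoE, 29.8% and 23.7% in CKD, and 9.34% and 20.5% in Ctrl. Every ApoE and CKD library lay above both Ctrl libraries in that share.

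Cox7a1 stood at 66.9 and 84.1 FPKM in ApoE, 52.0 and 18.6 FPKM in CKD, and 6.40 and 22.4 FPKM in Ctrl. In ApoE versus Ctrl its log2 fold change was 2.53 (SE 0.66, limma adjusted p = 0.0255), and the call was likewise lost without Ctrl 1, ApoE 1 or ApoE 2 (limma adjusted p = 0.0976, 0.0871 and 0.125). Its partner Cox7a2 stood at 126 and 109 FPKM in ApoE, 134 and 83.0 FPKM in CKD, and 68.5 and 77.5 FPKM in Ctrl, and was not called (0.68, SE 0.26, limma adjusted p = 0.0761). Cox7a1 was therefore high in ApoE 1, ApoE 2 and CKD 1, while CKD 2 lay between the Ctrl libraries. Its share of the pair was 34.6% and 43.5% in ApoE, 27.9% and 18.3% in CKD, and 8.55% and 22.4% in Ctrl. The Ctrl libraries themselves lay far apart in both isoforms, with Ctrl 1 the lower.

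Cox6a2, the remaining muscle isoform, was low throughout. It stood at 1.48 and 3.26 FPKM in ApoE, 0.696 and 1.73 FPKM in CKD, and 0.0884 and 0.486 FPKM in Ctrl, where the values rest on 1 and 5 reads. Its log2 fold change in ApoE versus Ctrl was 1.35 (SE 0.36, limma adjusted p = 0.0274), and 10.3% of its exon length overlaps Itgad on the other strand. Cox6a2 reached 1 FPKM only in ApoE 1, ApoE 2 and CKD 2, so it entered the test through libraries where it was high. With no filter on low values the call was lost (limma adjusted p = 0.062). With ApoE 1, ApoE 2, Ctrl 1 or Ctrl 2 left out, its log2 fold change ran from 0.962 to 1.75. It made up at most 0.468% of the pair with Cox6a1, so the widely expressed form carried nearly all of that pair in every library.

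No hypoxia or testis isoform was called in ApoE versus Ctrl. Cox4i2 stood at 4.30 and 3.07 FPKM in ApoE and 3.58 and 4.36 FPKM in Ctrl (log2 fold change -0.09, SE 0.18, limma adjusted p = 0.696). Its partner Cox4i1 stood at 161 and 185 FPKM in ApoE and 82.6 and 91.0 FPKM in Ctrl (0.99, SE 0.32, limma adjusted p = 0.0495). Cox4i2 thus made up a smaller share of its pair, 2.60% and 1.63% in ApoE, 2.43% and 3.94% in CKD, and 4.16% and 4.57% in Ctrl. Ndufa4l2 stood at 8.88 and 5.84 FPKM in ApoE, 8.15 and 9.23 FPKM in CKD, and 13.8 and 8.57 FPKM in Ctrl, and was not called in ApoE versus Ctrl (-0.54, SE 0.27, limma adjusted p = 0.154). Its partner Ndufa4, which is also counted as a complex IV subunit, stood at 204 and 181 FPKM in ApoE and 90.0 and 117 FPKM in Ctrl (0.90, SE 0.36, limma adjusted p = 0.0932). Ndufa4l2 made up 4.18% and 3.12% of that pair in ApoE, 2.80% and 6.43% in CKD, and 13.3% and 6.81% in Ctrl. Cox6b2 made up 1.32% and 2.00% of its pair with Cox6b1 in ApoE, 1.79% and 2.07% in CKD, and 4.73% and 2.76% in Ctrl. In each of these 3 pairs the share was lower in both ApoE libraries, and in both CKD libraries, than in either Ctrl library. The level of Cox4i2 itself was not lower in CKD: it stood at 5.66 and 4.83 FPKM, above both Ctrl libraries, and was not called (log2 fold change 0.33, SE 0.18, limma adjusted p = 0.265).

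**Figure D3:**
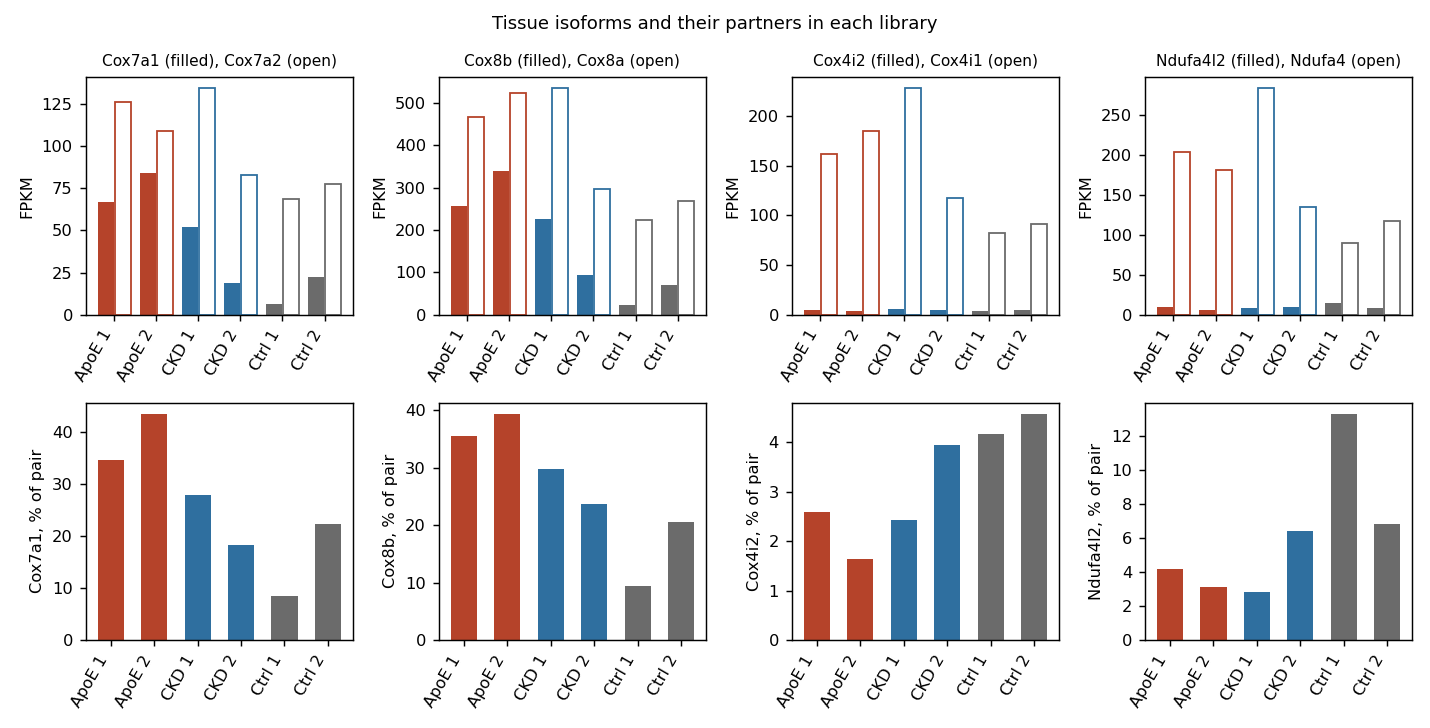
FPKM of 4 tissue isoforms (filled bars) and their partners (open bars) in each library, above, and the isoform as a percent of the pair, below. Cox7a1 and Cox8b take their largest shares in the ApoE libraries, and Cox4i2 and Ndufa4l2 their largest shares in the Ctrl libraries.

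CKD versus Ctrl asks how the aorta with medial calcification differs from the control. No member was called: 0 of 84 passed the limma test, and 33 had an unadjusted p below 0.05, as did 30% of all genes. Over all genes tested 5.44% were called, 2.23% of them higher and 3.21% lower as shares of all genes. The members' median log2 fold change was 0.62, and that of all genes was -0.03. In 66 members both CKD libraries lay above both Ctrl libraries, against 29.1% of all genes. The result turned on the CKD libraries: without CKD 2, 67 members were called higher and the median was 1.01, and without CKD 1 the count was 0 and the median 0.25. In these fits 8.31% and 0.174% of all genes were called higher.

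By complex the medians in CKD versus Ctrl were 0.59 for complex I, 0.88 for II, 0.76 for III, 0.76 for IV and 0.57 for V. Ndufb4c, annotated as a processed pseudogene and named after the complex I subunit gene Ndufb4, stood at 8.32 and 6.04 FPKM in CKD and 3.24 and 3.22 FPKM in Ctrl (log2 fold change 0.94, SE 0.20, limma adjusted p = 0.0549). That was the lowest adjusted p of the members, and any reads shared with Ndufb4 would make its level uncertain. Uqcrfs1 stood at 238 and 111 FPKM in CKD and 48.1 and 68.7 FPKM in Ctrl (1.48, SE 0.38, limma adjusted p = 0.0739). Ndufa10 stood at 59.8 and 33.4 FPKM in CKD and 18.96 and 22.03 FPKM in Ctrl (1.09, SE 0.29, limma adjusted p = 0.0788). These genes, picked by their p in the same libraries, did not overlap between groups, and in each of them CKD 1 stood well above CKD 2. Sdhd stood at 148 and 89.5 FPKM in CKD (0.95, SE 0.26, limma adjusted p = 0.0852) and Ndufs1 at 17.6 and 11.2 FPKM (0.84, SE 0.23, limma adjusted p = 0.0861). Sdha, Sdhb and Sdhc had log2 fold changes of 0.82, 1.27 and 0.53 (limma adjusted p = 0.130, 0.0919 and 0.176). For the isoforms the log2 fold change was 1.82 for Cox8b (SE 0.62, limma adjusted p = 0.119) and 1.29 for Cox7a1 (SE 0.66, limma adjusted p = 0.241).

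ApoE versus CKD sets the calcified plaques against medial calcification. No member was called in either direction, and 0 had an unadjusted p below 0.05 (50.1% of all genes did), while 39.7% of all genes were called (18.5% higher and 21.2% lower in ApoE). The members' median log2 fold change was 0.13. Both ApoE libraries lay above both CKD libraries in 8 members, namely Ndufa1, Ndufs5, Ndufs6b, Cox7a1, Cox8b, Atp5g1, Atp5g2 and Atp5s, and 33% of all genes did so. They lay below in 1 member, Cox4i2, and 38% of all genes did so. Without CKD 1, 29 members were called higher in ApoE, where 16.5% of all genes were. Without CKD 2, 4 members were called lower (Ndufb9, Uqcrc1, Atp5g3 and Atp5l), as were 18.4% of all genes.

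The 5 members with the smallest p in ApoE versus CKD were the following. Cox4i2 stood at 4.30 and 3.07 FPKM in ApoE and 5.66 and 4.83 FPKM in CKD (log2 fold change -0.42, SE 0.18, limma adjusted p = 0.108). Atp5g2 stood at 48.8 and 44.9 FPKM in ApoE and 40.4 and 30.3 FPKM in CKD (0.41, SE 0.18, limma adjusted p = 0.129). Ndufa1, a small membrane-arm subunit, stood at 197 and 198 FPKM in ApoE and 174 and 113 FPKM in CKD (0.49, SE 0.23, limma adjusted p = 0.144). The libraries of the groups did not overlap in any of these 3 genes, which were picked by their p in the same libraries. Atp5s, named as a coupling factor of the synthase, had a log2 fold change of 0.48 (SE 0.25, limma adjusted p = 0.173) and Cox7a1 of 1.24 (SE 0.66, limma adjusted p = 0.184). Cox8b, which is not among these 5, had a log2 fold change of 1.03 (SE 0.62, limma adjusted p = 0.233).

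Other genes of the pathway were read from the same fit. Over all genes tested 19.8% were called higher in ApoE versus Ctrl. Of the 13 mitochondrially encoded subunits 12 rose in that comparison, with a median log2 fold change of 1.54. Their summed level was 78497 and 88235 FPKM in ApoE, 80290 and 45484 FPKM in CKD, and 25268 and 33527 FPKM in Ctrl. As for the nuclear subunits, Ctrl 1 was lowest, and CKD 2 stood apart from CKD 1. Unlike for the nuclear subunits, the highest library was ApoE 2 and not CKD 1. Of 18 citric acid cycle enzymes 12 rose (median 0.91), among them Cs, citrate synthase, at 75.0 and 81.7 FPKM in ApoE and 27.7 and 34.8 FPKM in Ctrl (1.31, SE 0.33, limma adjusted p = 0.0224). Of 15 electron carriers and partners 7 rose (median 0.98), led by Gpd2, the mitochondrial glycerol phosphate dehydrogenase, at 20.9 and 18.5 FPKM in ApoE and 3.68 and 6.49 FPKM in Ctrl (1.80, SE 0.28, limma adjusted p = 0.00476). With Ctrl 1, Ctrl 2, ApoE 1 or ApoE 2 left out, most calls in each of these lists were lost, and a smaller share of all genes was called.

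Assembly and biogenesis genes had medians closer to 0. Of 44 tested assembly factors 13 rose and 1 fell in ApoE versus Ctrl (median 0.42). Of 77 mitochondrial ribosomal proteins 23 rose and 1 fell (median 0.40). Over all genes 19.8% were called higher and 24.3% lower. When any of the same 4 libraries was left out, most calls in both lists were lost, and a smaller share of all genes was called. Coa4, a complex IV assembly factor, stood at 4.68 and 4.89 FPKM in ApoE, 0.721 and 0.712 FPKM in CKD, and 1.33 and 1.13 FPKM in Ctrl. Unlike the nuclear subunits it was also called in ApoE versus CKD (1.75, SE 0.13, limma adjusted p = 0.000835). In that comparison 12 of the 44 assembly factors were called higher and 2 lower, beside 18.5% and 21.2% of all genes. Among 10 carriers and porins 5 rose and 1 fell: Ucp2, an uncoupling protein family member abundant in macrophages, changed by 2.18 (SE 0.20, limma adjusted p = 0.000827), and Slc25a4, the adenine nucleotide carrier of muscle, by -0.85 (SE 0.16, limma adjusted p = 0.00834). Of 13 biogenesis regulators 1 rose in ApoE versus Ctrl, Esrra, an oestrogen-related receptor, at 24.9 and 21.9 FPKM in ApoE and 13.7 and 12.5 FPKM in Ctrl (0.79, SE 0.20, limma adjusted p = 0.0227).

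In CKD versus Ctrl 0 of the mitochondrially encoded subunits, assembly factors, electron carriers and citric acid cycle enzymes were called. An unadjusted p below 0.05 was found for 10 of 13, 6 of 44, 9 of 15 and 14 of 18, against 30% of all genes. Called higher were 2 carriers and 1 ribosomal protein, beside 2.23% of all genes. Among the 13 regulators tested 4 had an unadjusted p below 0.05. Ppargc1b stood at 5.12 and 2.92 FPKM in CKD and 0.678 and 0.795 FPKM in Ctrl and was not called (log2 fold change 1.50, SE 0.34, limma adjusted p = 0.05975). Only Ppargc1a, the coactivator PGC-1alpha that drives mitochondrial biogenesis, was called. It stood at 13.2 and 8.23 FPKM in CKD and 0.419 and 0.832 FPKM in Ctrl (log2 fold change 2.83, SE 0.25, limma adjusted p = 0.0145). In ApoE it stood at 0.914 and 1.20 FPKM, lower than in CKD (-2.48, SE 0.25, limma adjusted p = 0.00163). Ppargc1a was thus high in both CKD libraries, while the summed subunit levels of the ApoE libraries lay between those of CKD 1 and CKD 2. Its call in CKD versus Ctrl was lost when CKD 1, Ctrl 1, Ctrl 2, ApoE 1 or ApoE 2 was left out (limma adjusted p 0.0518 to 0.0975). It was also lost with no filter on low values, in the fit of only the 4 libraries compared and with the level of white adipocyte markers as a covariate (limma adjusted p = 0.0602, 0.0672 and 0.288), where the log2 fold change was 2.83, 2.83 and 1.92.

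Fat markers moved with the subunit genes. In bulk tissue, fewer cells of a type and less RNA per cell cannot be told apart. The 10 white adipocyte markers summed to 2920 and 3186 FPKM in ApoE, 7172 and 2401 FPKM in CKD, and 374 and 924 FPKM in Ctrl. The 8 brown adipocyte markers summed to 506 and 456 FPKM in ApoE, 960 and 312 FPKM in CKD, and 75.1 and 182 FPKM in Ctrl. Both lists were highest in CKD 1 and lowest in Ctrl 1, as were most subunit genes. Ucp1, the uncoupling protein that defines brown and beige fat, stood at 236 and 147 FPKM in ApoE, 539 and 178 FPKM in CKD, and 26.3 and 77.4 FPKM in Ctrl, and Zic1 was below 1 FPKM in every library. In ApoE versus Ctrl 7 of 10 white and 2 of 7 tested brown adipocyte markers were called higher, beside 19.8% of all genes.

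The mean log2 level of the white adipocyte markers was added as a covariate. In ApoE versus Ctrl 0 members were then called (1 at an unadjusted p below 0.05) and their median log2 fold change was -0.097. Over all genes that fit called 6% higher and 5.45% lower, and 4141 of 14074 had an unadjusted p below 0.05. In CKD versus Ctrl the members' median was then -0.29, and 0% of all genes were called. Cox8b in ApoE versus Ctrl was then 0.48 and Cox7a1 -0.052. That marker level was 6.70 and 6.80 in ApoE, 7.61 and 6.03 in CKD, and 3.87 and 4.96 in Ctrl, with no overlap between Ctrl and either other group. Fat content, age, genotype and disease therefore cannot be told apart in ApoE versus Ctrl. Nor can fat content, surgery, diet, NaCl water, the unknown age and disease in CKD versus Ctrl. In ApoE versus CKD, where the marker levels overlap, the covariate fit called 6 members higher in ApoE, beside 20.2% of all genes, among them Cox7a1 (1.32, limma adjusted p = 0.00735) and Cox8b (1.10, limma adjusted p = 0.0146).

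Other cell types were read from their marker lists. The 7 macrophage markers summed to 3733 and 4647 FPKM in ApoE, 229 and 442 FPKM in CKD, and 112 and 97.3 FPKM in Ctrl. The 7 smooth muscle markers, which define the labelled tissue, summed to 643 and 561 FPKM in ApoE, 3417 and 5931 FPKM in CKD, and 8330 and 7465 FPKM in Ctrl. ApoE libraries thus held the most macrophage and the least smooth muscle marker RNA, and the part of either in the subunit levels was not tested. The 9 cardiomyocyte markers summed to 11.9 and 12.2 FPKM in ApoE, 29.6 and 36.2 FPKM in CKD, and 9.89 and 10.2 FPKM in Ctrl, with Myl2, Mybpc3 and Nppa below 1 FPKM in every library. The 9 skeletal muscle markers summed to 4.32 and 4.77 FPKM in ApoE, 7.55 and 6.99 FPKM in CKD, and 8.68 and 13.5 FPKM in Ctrl, with Myh1, Myh2 and Myh4 below 1 FPKM in every library. Of the 6 cardiomyocyte markers tested, 2 rose in ApoE versus Ctrl (Myl7 by 1.64 and Myh6 by 0.91 on the log2 scale). In the same comparison 2 fell (Ryr2, -1.89, and Tnnt2, -0.62), and 3 rose in CKD versus Ctrl (Myl7, Myh6 and Tnnt2). Of the 5 skeletal muscle markers tested, 3 fell in ApoE versus Ctrl and 0 were called in CKD versus Ctrl. In the latter 4 had an unadjusted p below 0.05, as did 30% of all genes. The part of striated muscle in the levels of Cox8b and Cox7a1 was not tested. The 5 mesothelial markers summed to 9.41 and 5.41 FPKM in ApoE, 56.2 and 45.0 FPKM in CKD, and 0.440 and 1.01 FPKM in Ctrl. Of the 5 endothelial markers 2 rose and 1 fell in ApoE versus Ctrl, and of the 5 fibroblast markers 2 fell. Beside these counts, 19.8% of all genes were called higher and 24.3% lower in ApoE versus Ctrl. In CKD versus Ctrl the shares were 2.23% and 3.21%.

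**Figure D4:**
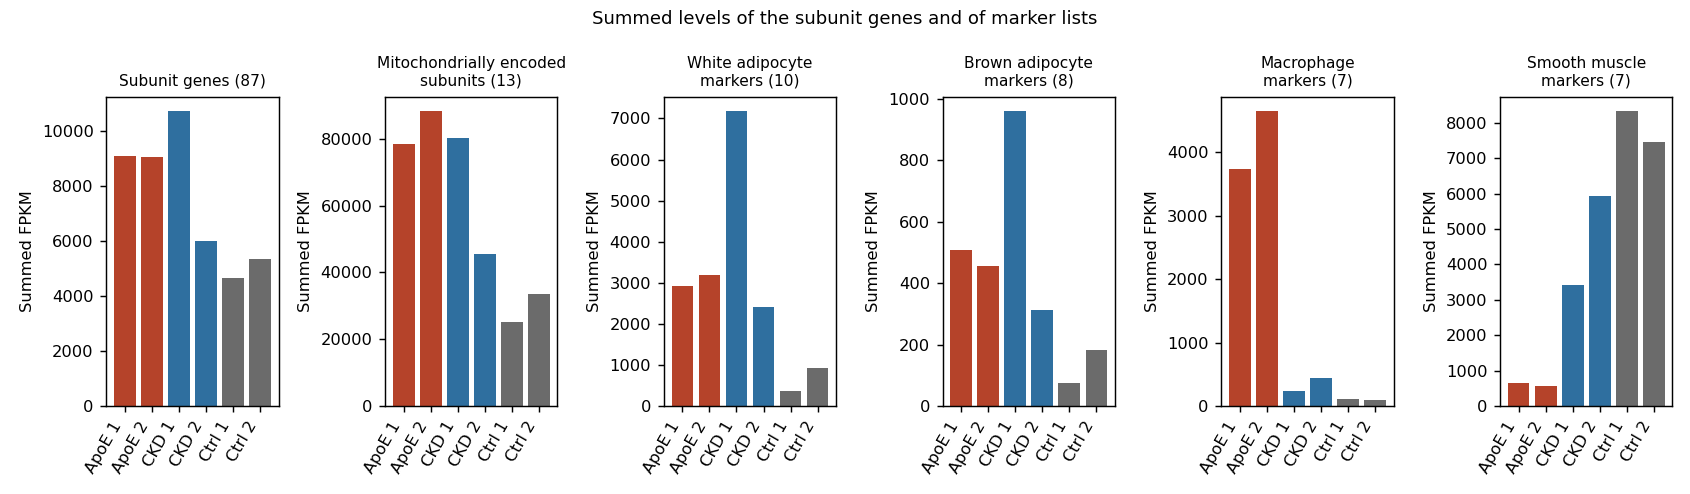
Summed FPKM of the subunit genes, the mitochondrially encoded subunits and 4 marker lists in each library; bars are libraries, and each panel has its own axis from 0. The nuclear subunit panel and both fat panels are highest in CKD 1 and lowest in Ctrl 1. The mitochondrially encoded panel is highest in ApoE 2 and lowest in Ctrl 1.

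**Figure D5:**
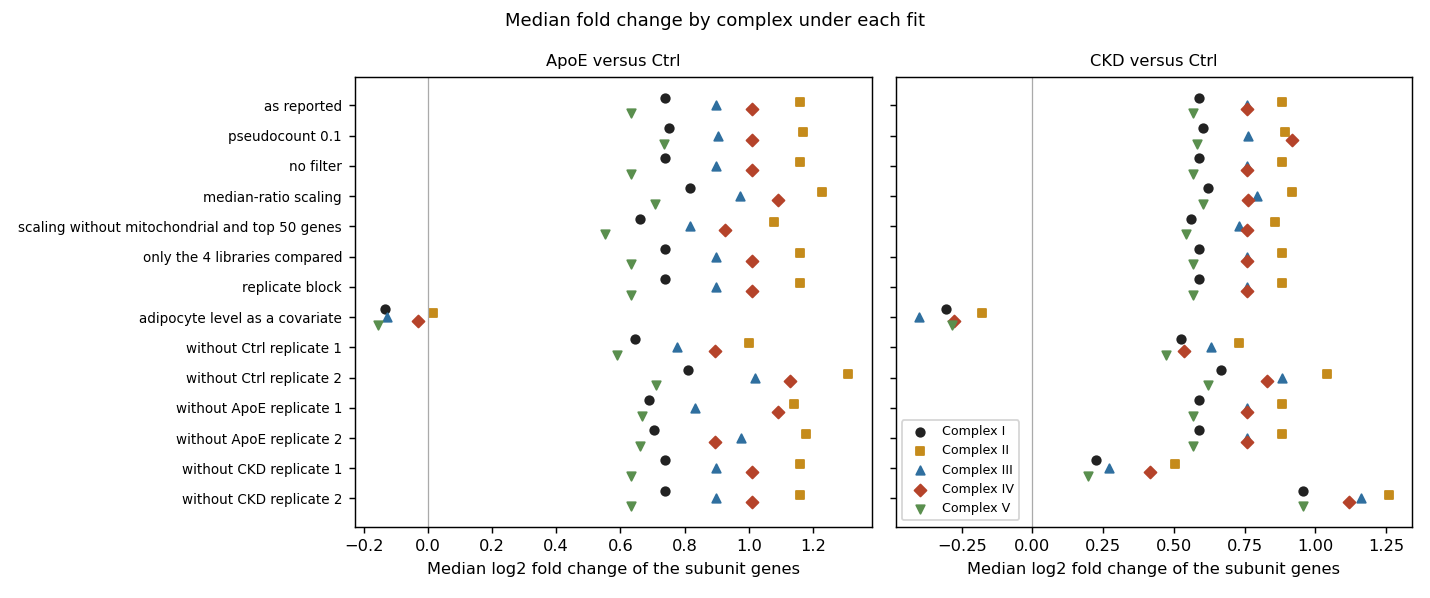
Median log2 fold change of the subunit genes of each complex in ApoE versus Ctrl (left) and CKD versus Ctrl (right) under the reported fit and each alternative. With the adipocyte covariate the members' medians stand at -0.097 and -0.29, and in CKD versus Ctrl they move with the CKD library left out.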

How the data were processed

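Polyadenylated RNA was sequenced from 6 aorta libraries in 3 groups of 2 (ApoE, CKD, Ctrl), made with a kit that does not mark strand, per the labels' protocols. The authors deposited 1 value per gene and library. No header or label names the unit, which was taken as FPKM from the deposited values. Once multiplied by GENCODE M21 exon length, 92.0% to 94.3% of them came within 0.05 of a whole number of reads. TopHat2, HISAT2 2.1.0, Bowtie2 2.2.3 and build GRCm38 appear in the submitters' processing notes without roles. No counting tool is given in the sources used here. In 5 of the files the deposited identifiers and values, of other form than the 2-column file, were stacked in 1 column and joined by position. Symbols were matched for 27695 identifiers and exon lengths for 27730. Exons of 29 members overlap another gene, none by over 50% of their length, and such reads cannot be told apart.

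Values were tested as log2(FPKM + 1), a scale that understates changes of low genes, with limma 3.58.1 in R 4.3.3 (variance trend, robust spread). All 6 libraries entered a single model of group means, with Benjamini-Hochberg adjustment over 14074 genes and calls below 0.05. The script was tested on simulated data. With 2 libraries a group an exact permutation test cannot pass the threshold, so isoform shares are given as values. Nothing says that libraries are separate animals, so the p-values reflect library-to-library spread alone, possibly technical.

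Members, gene lists and alternatives were chosen with earlier results of these data known. Values in every library are given for the tissue isoforms and partners, the Sdh genes, the most abundant member of each complex, and, per comparison, the 5 largest rises among called members or, with under 3 called, the 5 smallest p. From related lists up to 3 called genes with the smallest adjusted p were eligible; other genes named were chosen after their values were seen. Alternatives changed the pseudocount (0.1), the filter, the scaling, the libraries in the fit, the replicate block and the adipocyte covariate, and left out each library in turn. A member that enters the counts and medians is not reported here by itself, nor drawn among the fold changes.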

Additional observations from a re-analysis of the deposited data

How the results depend on the processing

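In ApoE versus Ctrl the number of members called higher, 35 as reported, was 5 with no filter on low values, 22 after rescaling without mitochondrial and the 50 most abundant genes, 74 in a fit of only the 4 libraries compared and 0 with the adipocyte covariate, and leaving out each library in turn gave 0 to 73. The genes called there numbered 1611 with the covariate and 2992 to 7022 with a library left out, and the members' median with the covariate was -0.097. In CKD versus Ctrl the genes called numbered 1 with no filter, 1 in the fit of 4 libraries, 0 with the covariate (1239 at an unadjusted p below 0.05) and 0 to 2366 with a library left out. The members called higher numbered 1 with median-ratio scaling (Ndufb4c, limma adjusted p = 0.0490) and 0 to 67 with a library left out, and the median with the covariate was -0.286. In ApoE versus CKD the covariate fit called 6 members higher (9 had an unadjusted p below 0.05), and with a library left out the fits called 0 to 29 members higher, 0 to 4 lower and 2559 to 4941 genes. Leaving out a library leaves its group with 1, which is assumed to vary like the others. The cause of these shifts was not tested.

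With the adipocyte covariate the log2 fold change in ApoE versus Ctrl turned to -0.012 for Atp5b, -0.0615 for Cox4i1, -0.116 for Cox6a1, -0.0522 for Cox7a1, -0.111 for Cox7a2, -0.0307 for Cox8a, -0.417 for Ndufa4, 0.0922 for Ndufa4l2, -0.346 for Ndufb9, -0.0131 for Sdha and -0.0199 for Sdhb. In CKD versus Ctrl it turned to -1.37 for Cox7a1, -0.627 for Cox8b, -0.051 for Ndufs1, -0.259 for Sdha, -0.138 for Sdhb and -0.218 for Sdhc. None of these values passed the limma test. Cox4i2 in ApoE versus Ctrl turned to 0.0193 without Ctrl 2 and 0.0965 without ApoE 2, in a range of -0.283 to 0.0965 with a library left out. No called member kept its call under all 13 alternatives, and Cox5a, Cox8b, Ndufb4c and Sdhd kept it under 9.

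The replicate numbers of the titles did not pair the libraries: deviations from the group mean correlated by 0.0457 between Ctrl and ApoE, -0.233 between Ctrl and CKD and -0.0966 between ApoE and CKD. With the replicate block 19 members were called higher in ApoE versus Ctrl and 46 genes in CKD versus Ctrl. At 14.4 to 16.6 M reads, Cox6a2, Cox6c2, Cox7b2 and Ndufa11b rest on at most 33 reads a library.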
